A study of Mus musculus with 9 samples.

Results

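Rapamycin given to pregnant mice was compared with vehicle in sorted kidney cells of embryos that lack Tsc1 in the Six2 lineage. The comparison set 3 libraries of mutants from rapamycin-treated dams against 3 libraries of mutants from vehicle-treated dams, which is 6 of the 9 libraries of the study. Every gene whose normalized count averaged at least 5 entered it, 19656 of the 54838 genes in the deposited table. Both mutant groups were Six2 Cre Tsc1 fl/fl embryos of the CD1 strain, in which a Six2 Cre transgene removes floxed Tsc1 from nephron progenitors and their descendants. The injected dams received rapamycin at 0.2 mg/kg, or vehicle (DMSO), every other day between E12.5 and E16.5 (embryonic days), and the cells were extracted at E18.5, by the labels. Kidneys were digested with collagenase and dispase, and cells positive for CD133 (prominin-1, gene Prom1) were sorted as proximal tubule cells. The 3 libraries of vehicle-treated Tsc1 fl/fl embryos without Cre, called controls here, entered the fit for the estimate of spread, and their values stand beside those of the mutants. Rapamycin-treated controls were not analysed here. Nothing in the labels says whether a replicate is 1 embryo, a litter or a pool, so p-values measure the spread between libraries, which may be partly technical.

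Tsc1 encodes hamartin, which together with tuberin (Tsc2) restrains the small GTPase Rheb and through it the growth-promoting kinase complex mTORC1. Rapamycin, bound to the protein FKBP12 (gene Fkbp1a), inhibits that complex. The Six2 lineage forms the nephron from podocyte to distal tubule, whereas the collecting duct, with its principal and intercalated cells, grows from the ureteric bud, and stroma, endothelium and macrophages come from other lineages. Cre is therefore not expected in collecting duct cells, and which cells carried the deletion was not measured. Genes listed below under collecting duct or intercalated cells may also be expressed in other parts of the tubule, including parts formed by the Six2 lineage. Bulk RNA does not show which cells a transcript came from.

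Library totals in the 6 mutant libraries ranged from 23372093 to 32669791 counts. Levels are given as normalized counts, the read count divided by the library's size factor, and reads are not independent molecules. Rapamycin 2 stood apart, with 2.80% of its counts on Gm42418, a gene known to collect ribosomal RNA reads, against 0.425% to 0.970% in the other mutant libraries. The summed raw counts of the Y-linked genes Uty, Kdm5d, Ddx3y and Eif2s3y were 2153, 1523 and 1730 with vehicle and 4049, 2623 and 3854 with rapamycin, so they were higher in every rapamycin library, although none of the 4 genes passed the test. Xist overlapped, with 50781, 44517 and 18201 raw counts with vehicle and 7701, 43725 and 28135 with rapamycin. Each mutant library thus held both Xist, an RNA of female cells, and Y-linked counts, whereas control 1 had 14 Y-linked counts. A single embryo of 1 sex would not give both, so the mutant libraries read as mixes of male and female cells. Defining markers of proximal tubule were present in every library, among them Lrp2 at 12586 to 15678 normalized counts with vehicle and 17376 to 26621 with rapamycin. Markers of other cells were present too, so the label of proximal tubule cells describes the sort and not all of the RNA. For example, the stromal gene Pdgfra lay between 4348 and 11480.2, the endothelial gene Pecam1 between 2490 and 4884, and the macrophage gene Csf1r between 4133 and 9204. In these bulk samples, fewer cells of a type and less RNA per cell cannot be told apart.

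Rapamycin changed few genes beyond the spread between libraries. At a limma adjusted p under 0.05, 59 of 19656 genes were called (0.3%), 48 higher (0.244%) and 11 lower (0.056%). The rises included 12 immediate early genes, 6 collecting duct genes and 4 intercalated cell genes, and no gene list held more than 1 of the falls. At least 2-fold changes made up 35 of the rises and 10 of the falls, and the 2 groups of 3 libraries did not overlap for any of the 59. Before adjustment, 1217 genes were higher (6.19%) and 1085 lower (5.52%) at p under 0.05, and the groups did not overlap for 1849 genes on the higher side (9.41%) and 1770 on the lower side (9%). These shares over all genes are the background for the list counts below. The calls depended on single libraries: 0 genes passed without rapamycin 2 by limma or by limma-voom (1821 at an unadjusted p under 0.05, lowest adjusted p 0.0504), 7 without vehicle 2, 22 without rapamycin 1, 25 without vehicle 3, 25 without rapamycin 3 and 33 without control 2. Without control 1, 108 passed, and without vehicle 1, 201 passed. All 59 genes kept their direction in each of those fits. They had to, since their groups did not overlap and the controls do not enter the fold change, so this is no check.

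**Figure D1:**
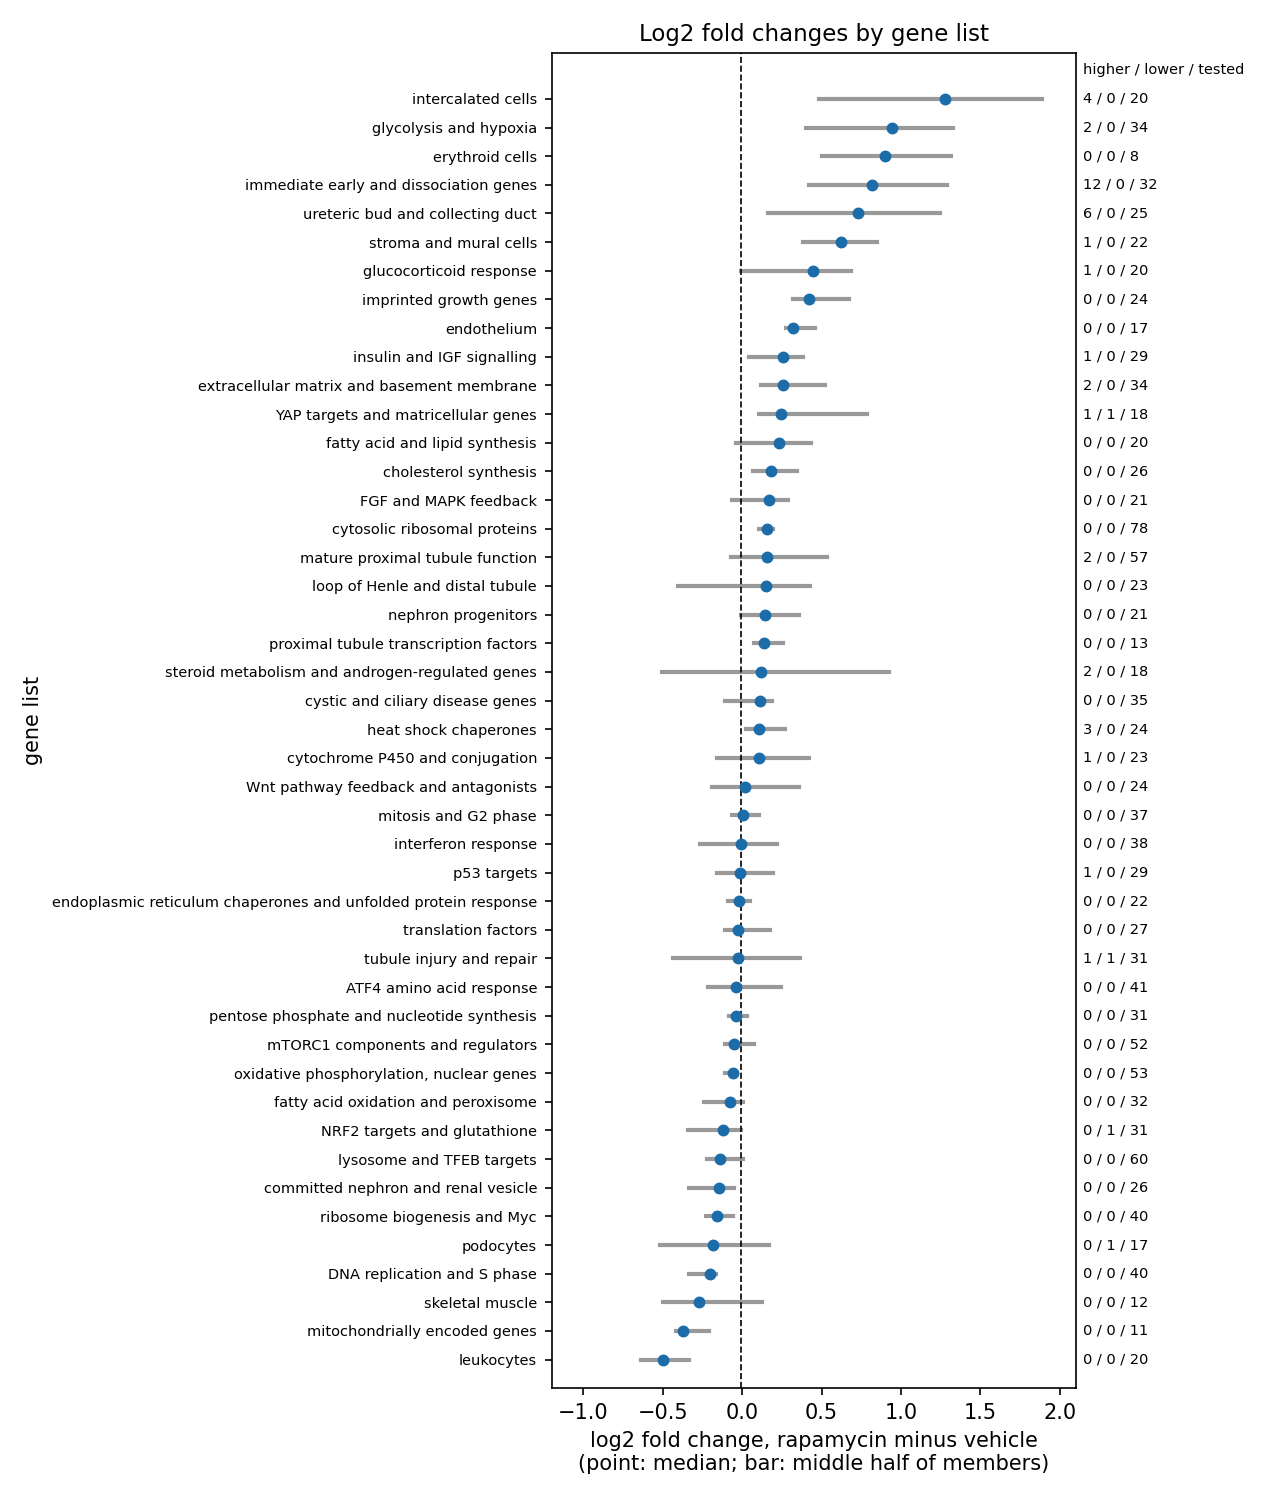
Log2 fold changes between rapamycin-treated and vehicle-treated mutants, by gene list. The horizontal axis is the log2 fold change, each point is the median over the tested members and each bar spans the middle 50% of them, the dashed line is the median of all genes (-0.01), and the numbers at the right give members called higher, called lower and tested. The intercalated cell list had the highest median (1.28), with 4 of 20 members called, and the immediate early list had the most called members (12 of 32).

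Before any comparison, the targeted gene and the driver of the Cre were read in each library. Tsc1 lies on chromosome 2 (28641228 to 28691167 in GRCm38, the build of all coordinates here). It had 1569.9, 1747 and 1624 normalized counts with vehicle and 1539, 1686 and 1526 with rapamycin. The groups overlapped, and the log2 fold change was -0.06 ± 0.13 (SE, limma adjusted p = 0.929). The table gives 1 count per gene, and which exons Cre removes is not stated in the labels, so these values are no check of the deletion. Six2 had 2817, 3737 and 3511 normalized counts with vehicle and 5044, 4319 and 4032 with rapamycin, against 1099, 1056 and 1172 in the controls. Every rapamycin library lay above every vehicle library, but the difference of 0.42 ± 0.13 log2 did not pass the test (adjusted p = 0.252). Six3, a homeobox gene next to Six2, stayed at 889.9 to 1074 with rapamycin and 875 to 913 with vehicle, with overlapping groups (0.12 ± 0.25, adjusted p = 0.917), against 2.20, 0.898 and 2.76 in the controls. None of Tsc2 (-0.09, adjusted p = 0.854), Fkbp1a (0.16, adjusted p = 0.734) or Prom1 (-0.22, adjusted p = 0.52) passed.

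Several ureteric bud and collecting duct genes rose with rapamycin. Of 25 tested, 6 rose and 0 fell, against 0.244% and 0.056% of all genes, and the median log2 fold change was 0.73 against -0.01 over all genes. Groups did not overlap on the higher side for 14 of the 25. The water channel Aqp2 (ENSMUSG00000023013, chromosome 15, 99579055 to 99584547), which vasopressin moves to the apical membrane of principal cells, had 193, 133 and 247 normalized counts with vehicle and 956, 1155 and 1174 with rapamycin. The groups were far apart, and the rapamycin libraries lay within the range of the controls (1167, 795 and 1729.8). Aqp2 rose by 2.55 ± 0.28 log2 (SE, n = 3 per group, adjusted p = 0.00508). Aqp3, the water channel of the basolateral membrane, had 103, 86.2 and 122 with vehicle and 278, 455 and 429.9 with rapamycin, and rose by 1.88 ± 0.26 (adjusted p = 0.016). The lowest rapamycin library thus exceeded the highest vehicle library. Scnn1g, the gamma subunit of the epithelial sodium channel, rose by 1.24 ± 0.19 (adjusted p = 0.0243), from 161 ± 27.3 to 383 ± 78.0 normalized counts (SD, n = 3). The alpha subunit gene Scnn1a, at 171 to 318 with vehicle and 207 to 305 with rapamycin, had overlapping groups (0.09, adjusted p = 0.951).

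The other called members of that list were regulators. Elf5, a transcription factor of principal cells, had 44.3, 31.7 and 30.1 normalized counts with vehicle and 101, 116 and 98.9 with rapamycin, and rose by 1.56 ± 0.24 (adjusted p = 0.0243). Wnt9b, the ureteric signal that induces nephrons, had 79.6, 74.3 and 99.3 with vehicle and 196, 212 and 225 with rapamycin, and rose by 1.32 ± 0.20 (adjusted p = 0.0243). Both genes thus stood clear of the vehicle libraries in each rapamycin library. Wnt11, a ligand of the ureteric tip, rose by 0.86 ± 0.13 (adjusted p = 0.0243), with 775, 892 and 830.1 against 1634, 1484 and 1418. Its rapamycin libraries lay above all 3 controls (857 to 1143), which those of Aqp2 and Elf5 did not. Gata3, a transcription factor of the ureteric lineage (1.11 ± 0.21, adjusted p = 0.0611), and Hsd11b2, which inactivates glucocorticoid in principal cells (0.75 ± 0.15, adjusted p = 0.0842), did not pass. The count of 6 was 2 without control 2, 1 without vehicle 2, 3 without rapamycin 1, 0 without rapamycin 2, 1 without rapamycin 3 and 9 without vehicle 1. The fold change of Aqp2 stayed between 2.31 and 2.76 in those fits, and its call was lost only without rapamycin 2 (adjusted p = 0.0504).

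Intercalated cells, which secrete acid or base in the collecting duct, gave a like picture. Of 20 genes tested, 4 rose and 0 fell, 16 were higher and 0 lower at an unadjusted p under 0.05 (6.19% and 5.52% of all genes), and the median log2 fold change was 1.28. Foxi1 (ENSMUSG00000047861, chromosome 11, 34204338 to 34208089), the forkhead factor that intercalated cells need to form, had 40.3, 41.6 and 43.5 normalized counts with vehicle and 169, 243 and 245 with rapamycin. The 3 vehicle libraries were nearly equal and the rapamycin libraries all stood above them, overlapping the controls (259, 158 and 218). Foxi1 rose by 2.34 ± 0.23 log2 (adjusted p = 0.00508), with the smallest p-value of all genes tested.

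The other 3 called members encode transport proteins. Atp6v1b1, the B1 subunit of the vacuolar proton pump, had 40.3, 52.5 and 75.9 normalized counts with vehicle and 186, 236 and 269.8 with rapamycin, and rose by 2.05 ± 0.24 (adjusted p = 0.00641). Its rapamycin libraries all stayed below the 3 controls (341, 339 and 367). Slc26a4, the chloride and bicarbonate exchanger pendrin, had 9.07, 7.92 and 10.04 with vehicle and 31.9, 43.5 and 61.2 with rapamycin, against 72.6, 95.2 and 102 in the controls. It rose by 2.17 ± 0.30 (adjusted p = 0.016) and again stayed below each control. Slc4a9, an anion exchanger of base-secreting cells, went from 50.4 ± 9.49 to 199 ± 42.5 (SD, n = 3) and rose by 1.95 ± 0.22 (adjusted p = 0.00508), against 354 to 430.1 in the controls. Slc4a1, the anion exchanger AE1 of acid-secreting cells and of red cells, had 28.2, 17.8 and 5.58 with vehicle and 65.8, 32.0 and 27.7 with rapamycin, with overlapping groups, and did not pass (1.38 ± 0.56, adjusted p = 0.368). The count of 4 was 2 without vehicle 2, 0 without rapamycin 2, and 6 without control 1 or vehicle 3.

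**Figure D2:**
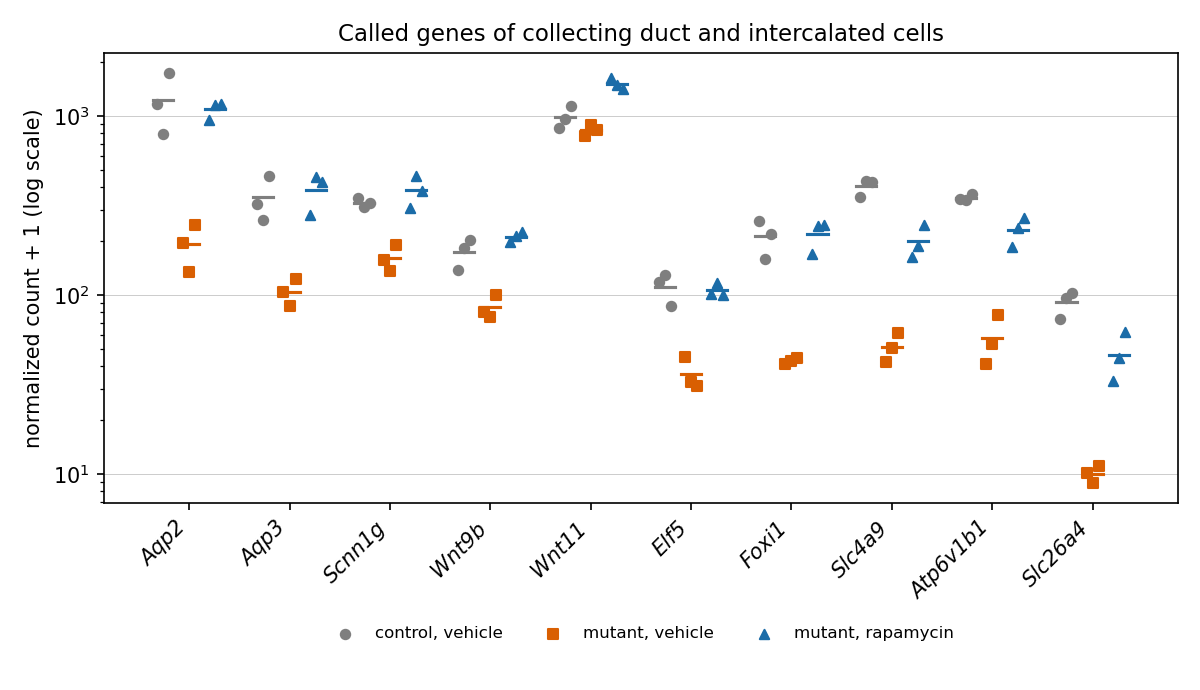
Normalized counts + 1 (log scale) of the 10 called genes of the intercalated cell list and the list of ureteric bud and collecting duct in all 9 libraries. Each symbol is 1 library and each short line a group mean. The mutant vehicle libraries (squares) lie below the mutant rapamycin libraries (triangles) for every gene. For Atp6v1b1, Slc26a4 and Slc4a9 the rapamycin libraries lie between vehicle and control (circles).

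Immediate early genes form the largest called group. They encode transcription factors and regulators that cells switch on within minutes of a stimulus, without new protein synthesis, and they are also known to rise when tissue is dissociated with enzymes. Of 32 tested, 12 rose and 0 fell, against 0.244% and 0.056% of all genes, and the median log2 fold change was 0.82. At an unadjusted p under 0.05, 24 were higher and 0 lower, against 6.19% and 5.52% of all genes. The summed normalized count of the list was 62700.3 to 71854 with vehicle, 116448 to 154513 with rapamycin and 58555 to 63732 in the controls. Fos (ENSMUSG00000021250, chromosome 12, 85473890 to 85477273), a subunit of the AP-1 transcription factor, had 5248, 3663 and 4111 normalized counts with vehicle and 19708, 18800.3 and 12127 with rapamycin. All rapamycin libraries stood above the vehicle libraries and above the controls (4562, 3732 and 2965). Fos rose by 1.94 ± 0.22 log2 (adjusted p = 0.00508). Fosb had 1862, 1503 and 1303 with vehicle and 7658, 4810.5 and 3413 with rapamycin, and rose by 1.70 ± 0.25 (adjusted p = 0.0216). Its rapamycin libraries were widely spread, with rapamycin 1 the highest. The partners Jun (1.34 ± 0.17, adjusted p = 0.00835) and Junb (1.28 ± 0.15, adjusted p = 0.00518) rose as well.

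Among the other called members, Egr1, a zinc finger transcription factor, had 7059, 7617 and 6859 normalized counts with vehicle and 28598, 22834 and 16585 with rapamycin, and rose by 1.63 ± 0.18 (adjusted p = 0.00508). Rapamycin 1 was the highest here too. Egr2 rose by 1.31 ± 0.21 (adjusted p = 0.0261), and the orphan nuclear receptor Nr4a1 by 1.34 ± 0.14 (adjusted p = 0.00508), from 1522 ± 40.2 to 3881 ± 640.2 (SD, n = 3). Genes that damp such a response rose along with them. Zfp36, which destabilizes messenger RNA, went from 3213 ± 309 to 7496 ± 1119 (1.22 ± 0.14, adjusted p = 0.00518). Dusp1, a phosphatase of MAP kinases and a glucocorticoid-responsive gene, had 1145, 1047 and 1142 with vehicle and 2220.2, 2369 and 2029 with rapamycin and rose by 0.99 ± 0.13 (adjusted p = 0.0113). Btg2, an antiproliferative gene and target of p53, rose by 1.36 ± 0.17 (adjusted p = 0.00835). Ier2 (1.23 ± 0.16, adjusted p = 0.0137) and Csrnp1 (0.91 ± 0.16, adjusted p = 0.0454) complete the 12. In the list of p53 targets Btg2 was the only one of 29 called, and in the glucocorticoid list Dusp1 the only one of 20. In the latter list 9 genes were higher and 0 lower at an unadjusted p under 0.05, the median was 0.45, and the summed level was 15910 to 17943 with vehicle and 21588 to 25536 with rapamycin. Its count was 3 with the 6 mutant libraries alone or without control 1, 2 without control 2 or vehicle 1, and 0 without vehicle 2, rapamycin 1 or rapamycin 2. Of the 32, 31 had a positive log2 fold change, down to 0.08 for Fosl1 (adjusted p = 0.97), and Klf10 had a negative one (-0.34, adjusted p = 0.484).

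Outside the list, 2 further genes of the same kind were among the 12 largest rises. Arc (ENSMUSG00000022602), best known as an activity-induced gene of neurons, had 118, 69.3 and 119 normalized counts with vehicle and 617, 454 and 418 with rapamycin, and rose by 2.29 ± 0.25 (adjusted p = 0.00508). Cyr61, a matricellular protein and target of the YAP coactivator, had 3409, 2012 and 2709 with vehicle and 9842, 12359.7 and 8609.9 with rapamycin, and rose by 1.94 ± 0.20 (adjusted p = 0.00508). For both genes each rapamycin library also exceeded each control, the highest of which was 128 for Arc and 4049 for Cyr61. The count of 12 in the list was 2 without vehicle 2, 8 without rapamycin 1 and 0 without rapamycin 2, and Fos lost its call without vehicle 2 or rapamycin 2 (adjusted p up to 0.0526).

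The promoters of called immediate early genes are shown because these genes rose together. One of the classical signals for such genes is the cyclic AMP response element, TGACGTCA, or its shorter half-site TGACG, which the factor CREB can bind. Windows of 250 bases before the RefSeq start (build GRCm38.p6) were found for 10 of the 12 called members, and 7 of them held TGACG on either strand, as did 13 of 27 matched members of the whole list and 25% of 12939 promoters. The full element, which contains the half-site, occurred in 2 of the 10 (Dusp1 and Btg2) and in 2.51% of promoters. The CArG box, the site of serum response factor and another such signal, occurred in 1 of the 10 (Zfp36) and in 1.13% of promoters. Sites further upstream than 250 bases were not searched, so these counts do not show which signal the genes use. The 4 windows printed, chosen after the matches were seen, run 5′ to 3′ on the gene's strand with each TGACG or its reverse complement in capitals. They are chr12:85473640-85473889 (plus strand) for Fos, chr8:84978749-84978998 (minus) for Junb, chr17:26508520-26508722 (minus) for Dusp1 and chr1:134079156-134079405 (minus) for Btg2. The Dusp1 window leaves out 47 bases that lie inside the deposited gene. A match describes the letters only.
Fos: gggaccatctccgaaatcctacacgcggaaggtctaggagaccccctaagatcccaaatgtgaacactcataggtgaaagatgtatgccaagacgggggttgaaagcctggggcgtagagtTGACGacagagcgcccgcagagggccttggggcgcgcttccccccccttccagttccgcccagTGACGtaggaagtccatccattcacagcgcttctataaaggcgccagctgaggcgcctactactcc
Junb: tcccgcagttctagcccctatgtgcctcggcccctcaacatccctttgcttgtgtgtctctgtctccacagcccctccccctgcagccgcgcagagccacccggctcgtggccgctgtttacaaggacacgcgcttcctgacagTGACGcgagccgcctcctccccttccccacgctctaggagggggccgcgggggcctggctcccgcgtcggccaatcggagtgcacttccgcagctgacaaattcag
Dusp1: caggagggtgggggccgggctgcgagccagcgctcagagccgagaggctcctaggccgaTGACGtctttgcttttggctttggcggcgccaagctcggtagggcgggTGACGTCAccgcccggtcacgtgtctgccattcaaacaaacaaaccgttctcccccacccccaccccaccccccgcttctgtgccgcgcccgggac
Btg2: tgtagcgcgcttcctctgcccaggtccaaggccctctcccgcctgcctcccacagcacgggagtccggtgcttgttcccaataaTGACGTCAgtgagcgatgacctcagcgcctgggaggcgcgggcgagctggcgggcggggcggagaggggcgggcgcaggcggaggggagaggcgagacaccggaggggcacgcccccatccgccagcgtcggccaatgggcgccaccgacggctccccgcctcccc

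Beside them, 3 of 24 heat shock chaperones rose and 0 fell, against 0.244% and 0.056% of all genes, with a list median of 0.11. Hspa1a (ENSMUSG00000091971, chromosome 17, 34969190 to 34972156), an inducible HSP70, had 1365, 914 and 1314 normalized counts with vehicle and 2977, 4327 and 3188 with rapamycin, and rose by 1.55 ± 0.20 (adjusted p = 0.0128). Hspa1b had 2156, 1289 and 2061 with vehicle and 4602, 6109 and 4258 with rapamycin, and rose by 1.46 ± 0.21 (adjusted p = 0.0181). Rapamycin 2 was the highest library for both, and neither gene's groups overlapped. The cochaperone Dnajb1 rose by 0.85 ± 0.13 (adjusted p = 0.0261), from 1845 ± 289.7 to 3314 ± 191 (SD, n = 3). Reads of Hspa1a and Hspa1b may be split or shared, since the genes are near-identical copies, and Gm20481, called on the opposite strand of Hspa1a (1.70 ± 0.24, adjusted p = 0.0181), may hold its reads because the strand setting is not given. The count of 3 was 0 without vehicle 2, 1 without rapamycin 1, 0 without rapamycin 2 and 2 without rapamycin 3 or vehicle 3.

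Promoters of both copies are printed to show how alike they are and where the heat shock element lies, the site of heat shock factor, searched as GAANNTTC on both strands and in capitals here. It occurred in 2 of the 3 called chaperones, in 5 of 18 matched members of the list and in 5.15% of all promoters. The windows are chr17:34972157-34972406 (minus strand) for Hspa1a and chr17:34959239-34959488 (minus) for Hspa1b, and they differ at 3 of 250 bases.
Hspa1a: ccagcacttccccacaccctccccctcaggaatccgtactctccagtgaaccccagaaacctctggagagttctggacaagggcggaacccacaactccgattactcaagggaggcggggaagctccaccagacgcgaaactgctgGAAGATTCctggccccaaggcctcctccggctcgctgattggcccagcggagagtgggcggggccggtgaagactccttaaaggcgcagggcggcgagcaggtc
Hspa1b: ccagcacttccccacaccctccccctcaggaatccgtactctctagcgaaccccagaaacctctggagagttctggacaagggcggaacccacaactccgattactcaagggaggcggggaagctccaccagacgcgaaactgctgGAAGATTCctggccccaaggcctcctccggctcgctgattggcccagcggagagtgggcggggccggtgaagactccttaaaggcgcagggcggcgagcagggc

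**Figure D3:**
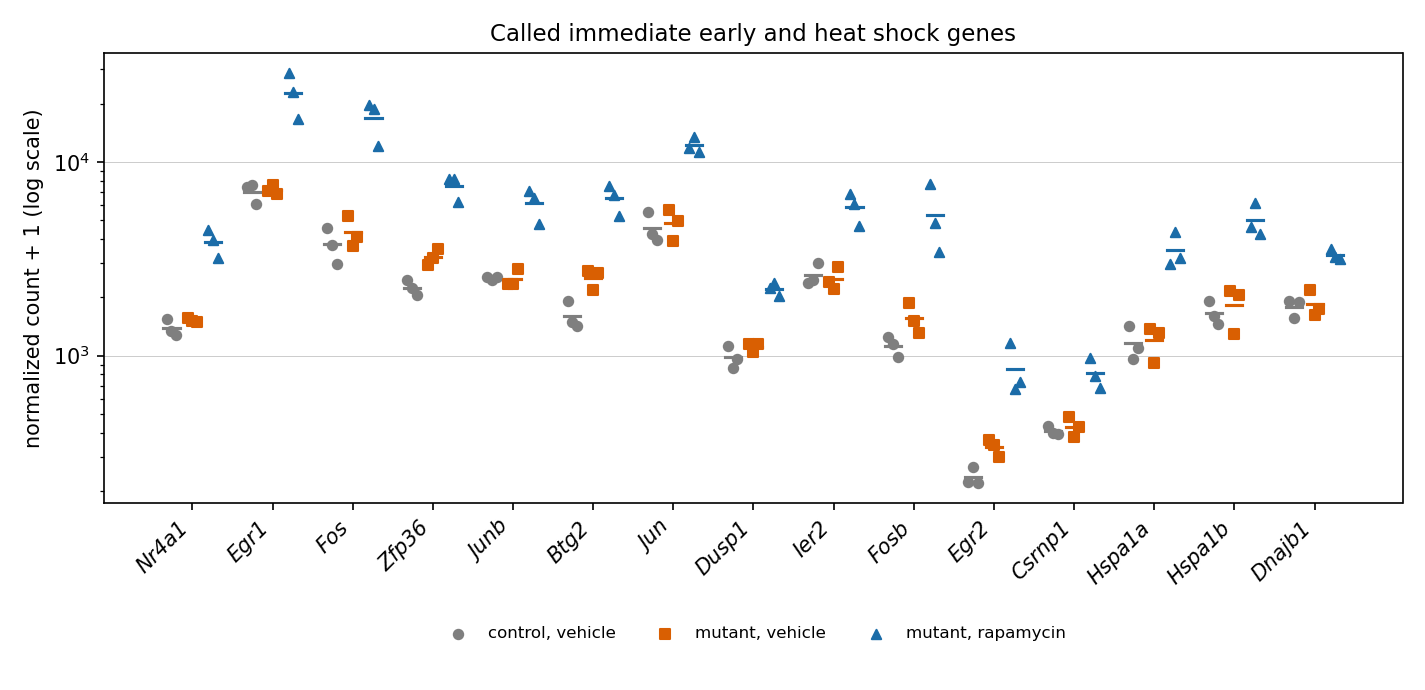
Normalized counts + 1 (log scale) of the 12 called immediate early genes and 3 called heat shock chaperones in all 9 libraries. Each symbol is 1 library and each short line a group mean. Mutant rapamycin libraries (triangles) lie above both mutant vehicle (squares) and control libraries (circles) for every gene, as for Fos with 12127 to 19708 against at most 5248.

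In the proximal tubule itself, 2 of 57 genes of mature function rose and 0 fell, against 0.244% and 0.056% of all genes. At an unadjusted p under 0.05, 18 were higher and 3 lower, against 6.19% and 5.52% of all genes, and the median was 0.16. Slc6a18, a brush border transporter of neutral amino acids, had 384, 281 and 349 normalized counts with vehicle and 667, 759.6 and 612 with rapamycin, and rose by 1.01 ± 0.15 (adjusted p = 0.0243). Anpep, the brush border aminopeptidase N, had 2229, 1782 and 2217 with vehicle and 3539.8, 3478 and 3323 with rapamycin, and rose by 0.74 ± 0.11 (adjusted p = 0.0243). Its rapamycin libraries were close to the controls (3368, 3441 and 3415). The endocytic receptor genes Cubn (0.82 ± 0.18, adjusted p = 0.105) and Lrp2 (0.57 ± 0.21, adjusted p = 0.307) did not pass. Slc6a19, the neighbouring paralog of Slc6a18 and main transporter of neutral amino acids, pointed the other way without passing, with 86.7, 156 and 219.8 against 55.9, 48.0 and 52.0 (-1.46 ± 0.34, adjusted p = 0.121). Slc6a18 and Anpep lost their calls without control 2, vehicle 2 or 3, or any 1 rapamycin library (adjusted p up to 0.156), and the count of 2 was 3 without control 1 or vehicle 1.

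Several of the largest rises were enzymes and transporters of tubules outside that list. Hsd3b6 (ENSMUSG00000027869, chromosome 3, 98805504 to 98814443), which makes active steroids from their precursors, had 1.01, 0 and 0 normalized counts with vehicle and 15.0, 9.15 and 10.9 with rapamycin, against 37.4, 25.1 and 34.0 in the controls. The raw counts were 1 with vehicle and 36 with rapamycin, a ratio of 34.0 whose exact 95% interval for counting error was 5.72 to 1379, and limma gave 3.30 ± 0.44 log2 (adjusted p = 0.0137). The level with rapamycin thus stayed low and below each control. Akr1c18, which inactivates progesterone, had 26.2, 33.7 and 35.7 with vehicle and 87.8, 108 and 229.6 with rapamycin, and rose by 2.00 ± 0.34 (adjusted p = 0.0395). Mep1b, the brush border protease meprin beta, had 25.2, 24.8 and 27.9 with vehicle and 129, 117 and 84.6 with rapamycin, and rose by 2.02 ± 0.31 (adjusted p = 0.0243). Klk1, tissue kallikrein of the distal and connecting tubule, had 14.1, 10.9 and 14.5 with vehicle and 45.9, 80.1 and 116 with rapamycin, and rose by 2.44 ± 0.38 (adjusted p = 0.0243). Its spread with rapamycin was wide, and all 3 libraries exceeded the controls (18.7, 27.8 and 37.7). Slc22a19, an organic anion transporter, rose by 1.59 ± 0.22 (adjusted p = 0.0181). In the list of steroid metabolism and androgen-regulated genes, Hsd3b6 and Akr1c18 were the 2 of 18 that rose, and 0 fell. The Y-linked raw counts were also higher in all 3 rapamycin libraries than with vehicle. They were 14, 2650 and 1168 in the controls, where Hsd3b6 was highest in control 1. Rapamycin 1, with the most Y-linked counts, was the highest of its group for Hsd3b6 and Mep1b and the lowest for Klk1, Akr1c18 and Slc22a19. The part of the sex of the embryos in these rises was not tested. Hsd3b6, Klk1, Akr1c18 and Slc22a19 belong to families of near copies, so their counts are uncertain. Akr1c18 lost its call without any 1 library except control 1 or 3 (adjusted p up to 0.182), Mep1b without control 2 or any 1 mutant library except vehicle 1 (up to 0.172), Slc22a19 without vehicle 2 or 3 or rapamycin 2 or 3 (up to 0.0971), Klk1 without control 2, vehicle 2 or 3, or rapamycin 2 or 3 (up to 0.172) and Hsd3b6 without vehicle 2 or any 1 rapamycin library (up to 0.0742).

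The 11 falls did not gather in 1 list. Sprr1a (ENSMUSG00000050359, chromosome 3, 92483952 to 92485895), a small proline-rich protein of stressed and stratified epithelia, had 50.4, 75.3 and 127 normalized counts with vehicle and 11.97, 8.01 and 5.03 with rapamycin. It fell by 3.16 ± 0.47 log2 (adjusted p = 0.0235), to a level around or below the controls (7.70, 19.8 and 19.3). Sectm1b, a secreted and transmembrane protein, had 68.5, 80.2 and 193 with vehicle and 10.97, 17.2 and 19.3 with rapamycin, and fell by 2.65 ± 0.44 (adjusted p = 0.0345). With rapamycin it remained above each control (1.10, 0.898 and 1.84). Scgn, the calcium sensor secretagogin, had 33.3, 44.6 and 45.7 with vehicle and 10.97, 9.15 and 9.22 with rapamycin, and fell by 1.96 ± 0.33 (adjusted p = 0.0387), also to above the controls (3.30, 4.49 and 4.59).

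More abundant genes fell by less. Spp1, the secreted glycoprotein osteopontin and a marker of tubule injury, had 841, 670.4 and 1139 normalized counts with vehicle and 229, 334 and 369.5 with rapamycin, and fell by 1.50 ± 0.22 (adjusted p = 0.0235). In the list of tubule injury and repair, 1 of 31 fell (Spp1) and 1 rose (Cyr61), and 6 were higher and 5 lower at an unadjusted p under 0.05. The median log2 fold change was -0.03, with 15 positive and 16 negative. The summed level was 38471 to 43414 with vehicle and 48266 to 50775 with rapamycin, and the mean of Cyr61 alone went from 2710 to 10271. Gpx3, the extracellular glutathione peroxidase made by proximal tubules, had 6705, 9501 and 10766 with vehicle and 3995, 4028 and 4212 with rapamycin, and fell by 1.11 ± 0.19 (adjusted p = 0.041). The 3 rapamycin libraries agreed closely and lay between vehicle and control (1366, 1383 and 2020.1). Gpx3 was the 1 called gene among 31 NRF2 and glutathione genes. Hpgds, a prostaglandin D synthase, fell by 1.26 ± 0.22 (adjusted p = 0.0495), from 735 ± 171 to 304 ± 53.7 (SD, n = 3). Ntng2, the membrane-anchored netrin G2, fell by 0.99 ± 0.18 (adjusted p = 0.0495), and the long noncoding RNA AI480526 by 1.11 ± 0.17 (adjusted p = 0.0243). The predicted gene Gm21887 was lower as well (-1.06 ± 0.18, adjusted p = 0.0379). Without vehicle 2 or vehicle 3, 0 falls passed in limma, where 7 and 25 genes passed in all, 1285 and 1766 had an unadjusted p under 0.05, and limma-voom called 1 and 17. Falls numbered 0 without rapamycin 2, 2 without control 2, 2 without rapamycin 1, 5 without rapamycin 3, 18 without control 1 and 66 without vehicle 1.

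**Figure D4:**
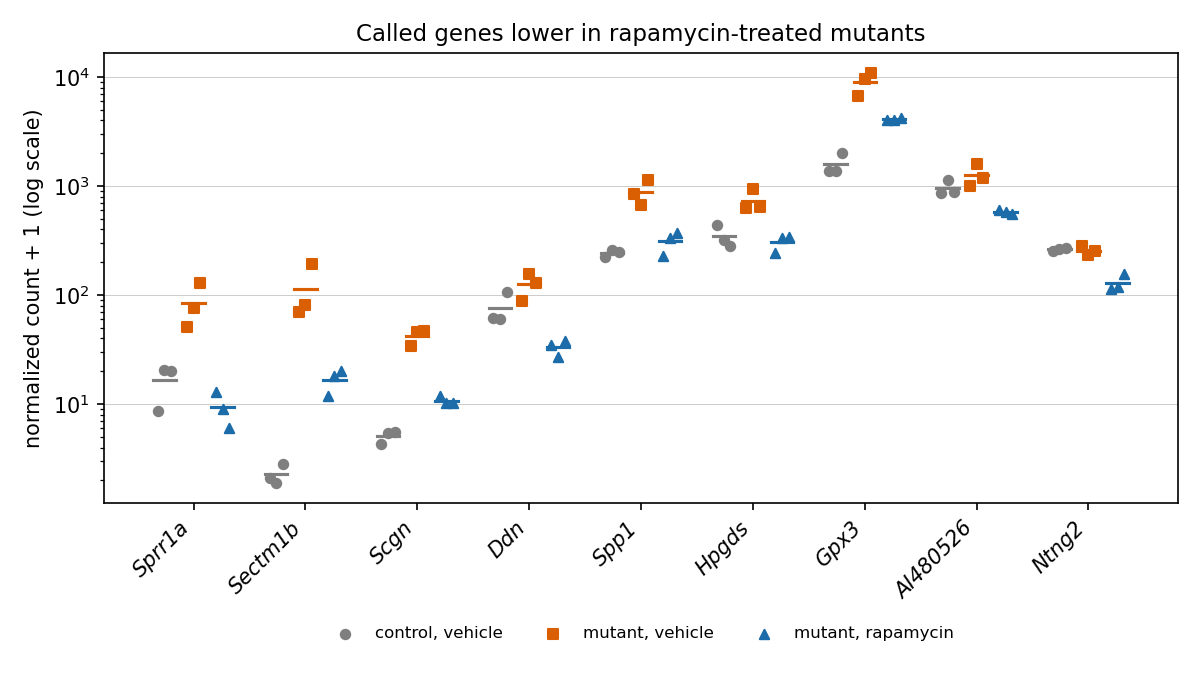
Normalized counts + 1 (log scale) of 9 genes called lower with rapamycin, in all 9 libraries. Each symbol is 1 library and each short line a group mean. Rapamycin libraries (triangles) of Sectm1b, Scgn and Gpx3 lie between mutant vehicle (squares) and control (circles), and those of Ddn, AI480526 and Ntng2 lie below both.

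Among genes of podocytes, the filtering cells of the glomerulus, 7 of 17 were lower and 3 higher at an unadjusted p under 0.05. Over all genes these shares were 5.52% and 6.19%. The median log2 fold change was -0.19, but the summed level overlapped, at 50959 to 55301 with vehicle and 53594 to 56678 with rapamycin. Ddn, the slit diaphragm protein dendrin, is not in the list and had 87.7, 155 and 129 normalized counts with vehicle and 33.9, 26.3 and 36.9 with rapamycin, against 60.5, 59.3 and 106 in the controls. Its rapamycin libraries lay below all the others, and it fell by 1.88 ± 0.30 (adjusted p = 0.0292). Nphs1, nephrin, had 497, 424 and 465 against 242, 183 and 194, with no overlap, and did not pass (-1.16 ± 0.22, adjusted p = 0.0686). Podxl (-0.52, adjusted p = 0.174) and Wt1 (-0.46, adjusted p = 0.143) did not pass. The podocyte marker Synpo had overlapping groups (-0.12, adjusted p = 0.801). The podocyte transcription factors Tcf21 (0.43, adjusted p = 0.231) and Foxc2 (0.41, adjusted p = 0.24) were on the other side of 0. Ddn lost its call without control 2, vehicle 2 or 3, or any 1 rapamycin library (adjusted p up to 0.206), and its count is uncertain because B130046B21Rik overlaps it.

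Stromal and matrix genes tended to be higher. All 22 stroma and mural cell genes had a positive log2 fold change, with a median of 0.62, and 1 passed. At an unadjusted p under 0.05, 14 were higher, against 6.19% of all genes. The summed normalized count of the list was 171135 to 195110 with vehicle and 255797 to 316097 with rapamycin. Col1a1, the main chain of type I collagen, had 31972, 30665 and 32082 with vehicle and 65468, 46592 and 49992 with rapamycin, and rose by 0.76 ± 0.13 (adjusted p = 0.0446). Rapamycin 1 was the highest. Col6a1, a chain of type VI collagen, rose by 0.88 ± 0.15 (adjusted p = 0.0345), from 8429.8 ± 874 to 15542 ± 1291 (SD, n = 3), and made the second call among 34 matrix genes. Called genes outside these lists include Plod1, which hydroxylates collagen (0.88 ± 0.14, adjusted p = 0.0243), the microfibril protein Mfap5 (1.36 ± 0.19, adjusted p = 0.016) and the matrix protein Smoc2 (1.20 ± 0.17, adjusted p = 0.0209), all named after their values were seen. Cyp26b1, which degrades retinoic acid, rose by 0.93 ± 0.14 (adjusted p = 0.0243), with 885, 754 and 761 against 1773, 1311 and 1528, and Rarg, a retinoic acid receptor, by 0.79 ± 0.13 (adjusted p = 0.0281). Without vehicle 1 the stromal count was 5 and the matrix count 4, without control 1 or 3 both were 4, without control 2 they were 0 and 1, and without vehicle 2 or 3 or any 1 rapamycin library both were 0.

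Endothelial and leukocyte genes gave no calls, and they pointed in different directions. Of 17 endothelial genes, 0 were called by limma or limma-voom, and 8 were higher at an unadjusted p under 0.05, against 6.19% of all genes. The summed level was 27825 to 35856 with vehicle and 36713 to 48534 with rapamycin. Kdr, the receptor of vascular endothelial growth factor, had the smallest p of them, with 3366, 2359 and 3078 against 4953, 4920.3 and 5805 (0.84 ± 0.19, adjusted p = 0.112). Of 20 leukocyte genes, 0 were called by either tool, and the median was -0.50. At an unadjusted p under 0.05, 6 were lower, against 5.52% of all genes. Mrc1, the macrophage mannose receptor, had 6568, 12263 and 8101 with vehicle and 4543, 4698 and 6104 with rapamycin (-0.77 ± 0.24, adjusted p = 0.227). The summed leukocyte level overlapped, at 25630 to 55711 with vehicle and 23611 to 32552 with rapamycin, with vehicle 1 the lowest of its group. The part of such shifts in cell make-up in the calls given above was not tested.

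Glycolytic and hypoxia-induced genes were higher with rapamycin in 31 of 34 cases, with 25 at an unadjusted p under 0.05 (6.19% of all genes) and a median of 0.95, but 2 passed. Hk1, a hexokinase, had 2629, 2395 and 2781 normalized counts with vehicle and 3964, 3765 and 4067 with rapamycin, and rose by 0.60 ± 0.10 (adjusted p = 0.0446). Egln3, an oxygen-sensing prolyl hydroxylase that hypoxia induces, had 969, 622 and 683 with vehicle and 1523, 2066 and 1628 with rapamycin, and rose by 1.21 ± 0.19 (adjusted p = 0.0286). Both stood clear of the vehicle libraries. The antisense gene Hk1os overlaps Hk1.

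For most of the others, vehicle 1 was close to the rapamycin libraries. Slc16a3, the lactate exporter MCT4, had 2322, 285 and 274 with vehicle and 2993, 4623 and 3389 with rapamycin, and 1296, 254 and 303 in the controls. The high library of the vehicle group was the first, as was that of the controls, so that the large difference of 2.67 ± 0.91 did not pass (adjusted p = 0.314). Slc2a1, the glucose transporter GLUT1, showed the same order with 2831, 782 and 907 against 3452, 5928 and 4292 (1.82 ± 0.47, adjusted p = 0.165). Lactate dehydrogenase A, gene Ldha, had 23479, 7020.4 and 8114 against 24680.0, 32249 and 27357 (1.34 ± 0.40, adjusted p = 0.213). Ddit4, a hypoxia-induced inhibitor of mTORC1, overlapped, with 1915, 733 and 884 against 1813, 2995 and 2339 (1.12 ± 0.38, adjusted p = 0.269). Without vehicle 1, 19 of the 34 genes passed and the median was 1.28, whereas without rapamycin 2, 0 passed (22 at an unadjusted p under 0.05) and the median was 0.85. The 2 calls were also lost without control 2, vehicle 2 or 3, or rapamycin 1 or 3. What set vehicle 1 apart is not given in the labels.

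**Figure D5:**
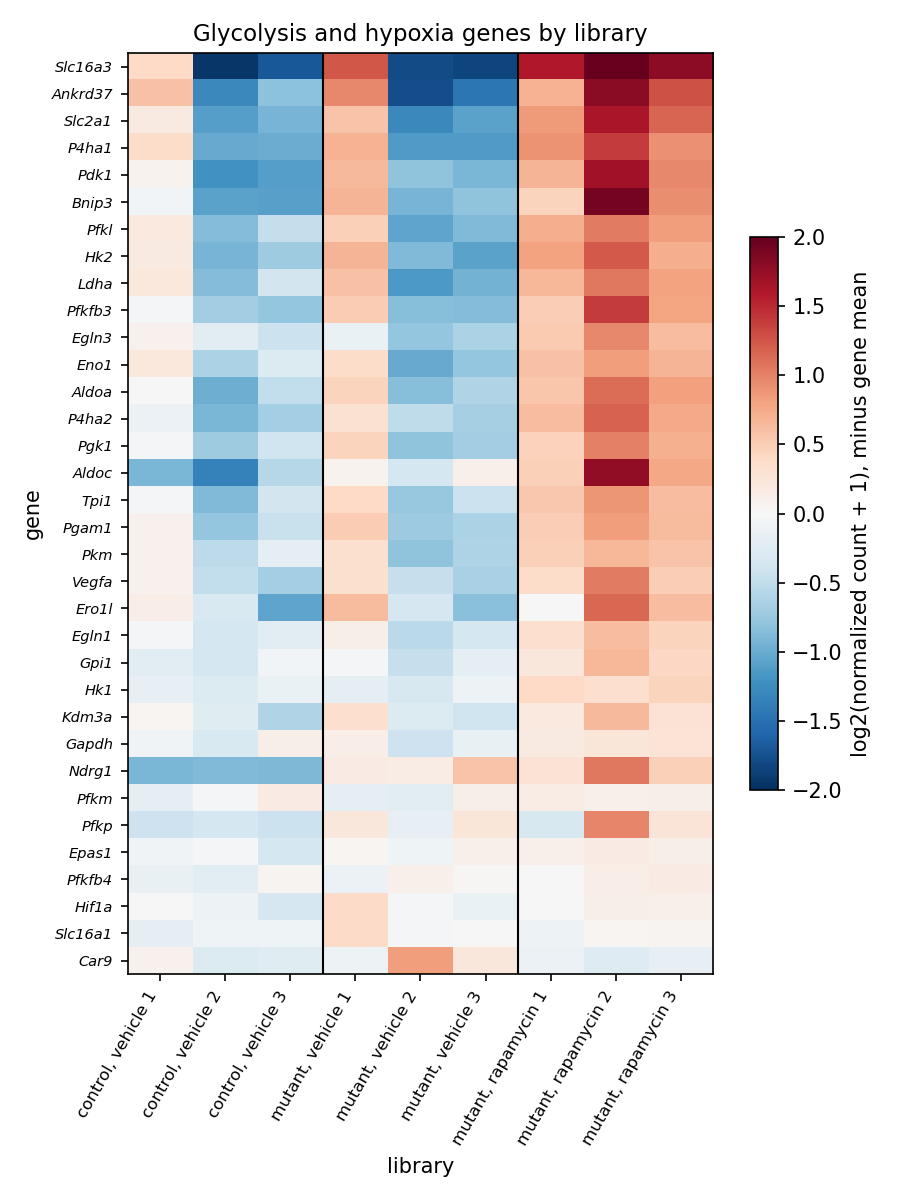
Log2(normalized count + 1) minus the gene's mean over the 9 libraries (colour, from -2 to 2), for the 34 glycolysis and hypoxia genes (rows, ordered by log2 fold change, the largest at the top) in each library (columns). Vehicle 1 of the mutants is red for most of the genes that are red in the 3 rapamycin libraries, for example Slc16a3, and vehicle 2 and 3 are blue.

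Among 52 mTORC1 components and regulators, 0 were called by limma or limma-voom, 1 was higher and 1 lower at an unadjusted p under 0.05, and the median was -0.05. The latter was Rragd, a Rag GTPase that carries amino acid signals, with 2405, 1922 and 1999 against 1292, 1681 and 1599.6 (-0.47 ± 0.15, adjusted p = 0.234). Of 60 lysosomal and TFEB target genes 0 were called by either tool, 5 were lower and 1 higher at an unadjusted p under 0.05. Gpnmb, a lysosomal glycoprotein, had 51.4, 95.1 and 109 with vehicle and 5.98, 25.2 and 18.4 with rapamycin, close to the controls (9.90, 13.5 and 23.9). Its log2 fold change of -2.43 ± 0.52 did not pass (adjusted p = 0.0948). In insulin and IGF signalling, 1 of 29 rose: Irs2, the insulin receptor substrate, had 2317, 2245 and 2356 with vehicle and 3959.7, 4595 and 3418 with rapamycin (0.78 ± 0.14, adjusted p = 0.0456). Each rapamycin library exceeded each vehicle library. Irs2 lost its call without control 2, vehicle 2 or 3, or any 1 rapamycin library (adjusted p up to 0.268).

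Ribosomal protein genes all had a positive log2 fold change (78 of 78, median 0.16), but 0 were called by either tool and 1 was higher at an unadjusted p under 0.05. Scaling by library totals moved this median to 0.09 and the median of all genes from -0.01 to -0.07, so both moved down together. Of 53 nuclear genes of oxidative phosphorylation, 40 of ribosome biogenesis and 37 of mitosis, 0 were called by either tool, with 0, 4 and 0 at an unadjusted p under 0.05. Of 40 genes of DNA replication, 0 were called by either tool and 8 were lower at an unadjusted p under 0.05, with a median of -0.20 that became -0.08 without rapamycin 2. Of 21 nephron progenitor genes and 26 of committed nephrons and renal vesicles, 0 were called by either tool, with medians of 0.14 and -0.15 and with 7 in each list at an unadjusted p under 0.05. Dll1, a Notch ligand of the renal vesicle, had the smallest p of the latter, with 2014 ± 379 against 1317 ± 190.2 (-0.61 ± 0.16, adjusted p = 0.174). In the imprinted growth genes 0 of 24 were called by either tool and 9 were higher at an unadjusted p under 0.05, among them the paternally expressed Dlk1 (1.22 ± 0.25, adjusted p = 0.0859).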

How the data were processed

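Messenger RNA of 9 libraries was sequenced with a stranded kit on a NextSeq 500, per the labels' protocols. Per the submitters' processing notes, the authors used DESeq2 1.22.1, HTSeq 0.6.0, cutadapt 1.18 and TopHat2 2.1.1, with the build GRCm38. Which tool did which step, the annotation release and the strand setting were not given in the sources used here. A single deposited table holds other columns of the authors' own tests, which were not used, and read counts and normalized counts for 54838 genes, 6252 of which carry a question mark in place of a count. Genes with such a mark were left out. The main test was limma on log values and not a count model, while limma-voom and the count ratios used the raw counts. The deposited normalized counts equal the raw count divided by 1 size factor per library (0.874 to 1.19).

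Counts divided by these factors were analysed as log2(value + 1) with limma 3.58.1 (trend and robust, statmod 1.5.0) in R 4.3.3. All 9 libraries entered 1 fit of 3 group means, genes with a mean of at least 5 were tested (19656), and p-values were adjusted by Benjamini-Hochberg over all of them, with calls under 0.05. Such fold changes understate the change of low genes. The procedure was run on simulated data in which genes varied independently. Those data lacked shifts of whole libraries, so they do not give the error rate of the calls here. Between libraries of 1 group, chi-square per degree of freedom was at least 17.2, so every library was treated as separate.

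The comparison, gene lists and tests were chosen with earlier results of these data known. Genes were named by a rule: the 12 largest rises and falls among called genes without overlap between groups, up to 4 called members of each list, and the member of smallest p of a list with none. Predicted and sex-linked genes were left out, and 1 called gene is not reported here. Genes named beyond it were chosen after their values were seen. Alternatives covered the libraries in the fit, the replicate number, pseudocount, filter, scaling, limma-voom, the variance prior and leaving out each library. Promoter windows and gene coordinates come from RefSeq (GRCm38.p6) and the deposited table. Intervals of count ratios are exact at the 95% level and cover counting error only.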

Additional observations from a re-analysis of the deposited data

How the results depend on the processing

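The count of 59 called genes (48 higher, 11 lower) changed with the settings. It was 87 with the 6 mutant libraries alone (73 higher), 103 with no filter on low values (85 higher, 18 lower), 24 without trended and robust variance (21 higher, 3 lower) and 42 with limma-voom. Pseudocounts of 0.5 and 5, a mean of at least 20, library totals and upper-quartile scaling gave 54 to 62. Leaving out 1 library gave 0 to 201 in all, 0 to 135 higher and 0 to 66 lower. The 0 came without rapamycin 2, by limma and by limma-voom (1821 at an unadjusted p under 0.05), and 0 lower also without vehicle 2 or 3. An alternative chosen after seeing the data left out control 1 and rapamycin 2, the 2 libraries with the largest share of Gm42418, and called 21 genes (20 higher, 1 lower). The cause of these shifts was not tested.

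Called members of the immediate early list, 12 in the main setting, were 5 without trended and robust variance and 0 to 14 when 1 library was left out. The ureteric bud and collecting duct list (6) gave 3 with limma-voom, 2 without trended and robust variance, 1 without the 2 libraries of high Gm42418 share and 0 to 9 when 1 library was left out. The intercalated list (4) gave 8 with no filter and 0 to 6 when 1 library was left out, and the heat shock list (3) gave 0 without trended and robust variance (24 genes in all were called by that setting, 2271 at an unadjusted p under 0.05), 1 without those 2 libraries and 0 to 3 when 1 library was left out.

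Replicate numbers are shared by the groups. Same-numbered vehicle and rapamycin libraries did not deviate together (correlations of -0.13, 0.08 and 0.06 over genes), nor did control and rapamycin libraries (-0.34, -0.01 and 0.22). These values gave no sign that the numbers pair the 2 groups compared, but with 3 libraries a group they cannot settle it. Same-numbered control and vehicle libraries did deviate together (0.43, 0.14 and 0.45), each correlating best with its own number, a hint from the data and not from the labels. The hint is weak, since differently numbered control and rapamycin libraries gave values as far from 0. These were 0.47 for control 1 and rapamycin 2, 0.39 for control 3 and rapamycin 1, and -0.50 for control 3 and rapamycin 2. With the replicate block, 206 genes were called (159 higher, 47 lower), with 8 intercalated, 8 stromal and 9 matrix genes against 4, 1 and 2, and all 59 were among them. Of the log2 fold changes of named genes under all settings, 1313 kept their call or, uncalled, stayed within 1 SE. A call was lost in 246 and gained in 10, 9 uncalled values moved by more than 1 SE, and 0 called values changed sign. In the fits without 1 library, genes called in the main setting could not change sign. Depth limits genes such as Hsd3b6, with 1 raw count in the vehicle group.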

Other observations

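Among the called genes not described above, Pdlim3, a muscle and stromal PDZ-LIM protein, had 244, 209.9 and 196 normalized counts with vehicle and 505, 685 and 486 with rapamycin, and rose by 1.35 ± 0.21 log2 (SE, n = 3 per group, limma adjusted p = 0.0243). Galnt17, a glycosyltransferase, rose by 0.72 ± 0.12 (adjusted p = 0.0425), from 433 ± 22.8 to 712 ± 58.4 (SD, n = 3). The gene named A930017K11Rik had 15.1, 23.8 and 21.2 with vehicle, 78.8, 62.9 and 68.7 with rapamycin and 63.8, 57.5 and 80.8 in the controls, and rose by 1.78 ± 0.26 (adjusted p = 0.023). In each of these genes the lowest rapamycin library exceeded the highest vehicle library. All were chosen for mention after their values were seen.

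Some large differences did not pass because libraries of 1 group were spread. Kap, an androgen-induced kidney gene, had 1.01, 0.990 and 5.58 normalized counts with vehicle and 62.8, 19.4 and 57.0 with rapamycin (3.83 ± 0.89, adjusted p = 0.122). Miox, which degrades inositol in the proximal tubule, had 6.05, 15.8 and 14.5 against 138, 25.2 and 137 (2.70 ± 0.67, adjusted p = 0.149). Rapamycin 2 was the lowest of its group for both. Y-linked counts were higher in all 3 rapamycin libraries, and the part of sex in these differences was not tested. Slc12a3, the thiazide-sensitive transporter of the distal tubule, had 107, 53.5 and 119 against 174, 241 and 719 (1.81 ± 0.50, adjusted p = 0.181).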
